A study of Mus musculus with 2 samples.

Results

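The cells described here are liver endothelial cells that carried messages for the central vein ligands Rspo3 and Wnt9b together with a venous gene. They were selected from raw counts of unique molecular identifiers (UMIs, 1 per captured mRNA molecule). Barcodes with fewer than 300 genes, or with over 20% of their UMIs from mitochondrial genes, were left out. A remaining barcode was a member if it had at least 1 UMI of the endothelial phosphatase Ptprb, at least 2 of Rspo3 and Wnt9b together, at least 1 of Vwf, Selp and Edn1 together, at most 1 of Ptprc, Clec4f and Reln together, which mark immune, Kupffer and stellate cells, and at most 1 of the arterial genes Gja5 and Adgrg6 together. This selection found 437 of 23889 cells, 244 of 11458 in 1 library and 193 of 12431 in the other. The values of the genes named in these criteria therefore chose the cells and are given below as description only.

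The study profiled single cells of mouse liver in droplets, with 1 sequencing library per genotype, labelled SLC22A18-/- and SLC22A18+/+, and no treatment is named for either. Slc22a18 is an imprinted gene for a membrane transporter, and the title of the study links its loss to beta-catenin, Ascl2 and several traits, fatty liver among them. The sources used here do not give strain, age, sex, the number of animals behind each library or which exons were deleted. Below, paired values stand in the order library labelled SLC22A18-/-, then library labelled SLC22A18+/+, and these are called the knockout-labelled and the wild-type library.

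In the liver lobule, blood enters at the portal triad, flows through sinusoids lined by fenestrated endothelium and leaves through the central vein. Endothelial cells of the central vein and of the neighbouring sinusoids secrete the Wnt ligands Wnt2 and Wnt9b and the Wnt amplifier R-spondin 3, encoded by Rspo3, which maintain the pericentral programme of the adjacent hepatocytes. Large vein endothelium differs from sinusoidal endothelium in lacking scavenger receptors such as Stab2 and in storing von Willebrand factor and P-selectin in Weibel-Palade bodies.

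With 1 library per genotype, and cells of 1 library not being replicates of a genotype, no difference below was tested and genotype, animal and library cannot be told apart. Levels are summed UMIs per 1000000 UMIs of the cell group (CPM). Intervals in parentheses are exact 95% intervals (Clopper-Pearson for shares, its conditional form for ratios, Poisson for levels), and they cover counting error only. A gene was called higher or lower between groups when it had at least 30 UMIs over both groups, a CPM ratio of at least 2 whose interval did not reach 1, and was detected in at least 5% of cells in the group with the higher level. Comparisons between cell classes were made in each library alone and required the call in both. The members held 2918065 and 2278187 UMIs, with medians of 10104.5 and 10438 UMIs per cell and ranges of 912 to 62776 and 781 to 35133. Of 38 barcodes that occurred in both libraries, 0 were members.

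The targeted gene did not separate the libraries in these cells. Slc22a18 lies at chromosome 7, 143473736 to 143499334, plus strand (GRCm38). It gave 16 and 10 UMIs in the members, or 5.48 and 4.39 CPM, with a UMI in 4.92% and 4.66% of cells. Lymphocytes (978 and 1201 cells, median 4789 and 4692 UMIs) served throughout as a reference for free RNA of endothelial genes. They had 5.87 and 6.01 CPM of Slc22a18. The members' CPM was thus not above that of lymphocytes in either library. Members were deeper, with medians of 10104.5 and 10438 UMIs, and free RNA may make up a smaller part of their UMIs. Whether the members express Slc22a18 was not tested. A 3' tag outside the deleted part would not show a deletion, so these counts do not check the labels.

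The 4 markers of the label, Rspo3, Wnt9b, Vwf and Selp, were not carried by most members together. Rspo3 (chromosome 10, 29452416 to 29535867, minus strand) was detected in 98.4% and 97.9% of members and Selp (chromosome 1, 164115264 to 164150026, plus strand), the leukocyte-capturing P-selectin, in 91.4% and 90.7%. Wnt9b (chromosome 11, 103727364 to 103749821, minus strand) was detected in 50.8% and 58.5%, and Vwf (chromosome 6, 125546774 to 125686679, plus strand), the platelet-tethering multimer, in 45.5% and 40.4%. Thus Rspo3 and Selp were nearly general among the members while Wnt9b and Vwf were each found in about as many members as they were missing from. Edn1 (chromosome 13, 42301476 to 42307990, plus strand), the vasoconstrictor endothelin 1, was detected in 35.2% and 32.6%. Rspo3 without Wnt9b was seen in 120 and 80 cells, both in 120 and 109, and Wnt9b without Rspo3 in 4 and 4. All 4 markers were found in 58 and 51 cells, and the venous criterion was met by Selp alone in 107 and 97.

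The members fell into a sinusoid-poor and a sinusoid-rich kind. The split used the summed UMIs of Stab2, a hyaluronan scavenger receptor, and Clec4g, a sinusoidal lectin, per 10000 UMIs of the cell. Fewer than 2 were found in 41 and 45 members and at least 20 in 147 and 113, while only 16 and 15 members lay between 2 and 5, 10 and 6 between 5 and 10, and 30 and 14 between 10 and 20. Members under 5 per 10000, a value chosen after the distribution was seen, are called sinusoid-poor (57 and 60 cells, 23.4% and 31.1% of members) and the others sinusoid-rich (187 and 133 cells). For reference, 97.3% and 97.6% of lymphocytes lay under 5, and 1.89% and 4.48% of pericentral sinusoidal cells did. Each kind is thus a range of this score and not a separately sorted type.

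**Figure D1:**
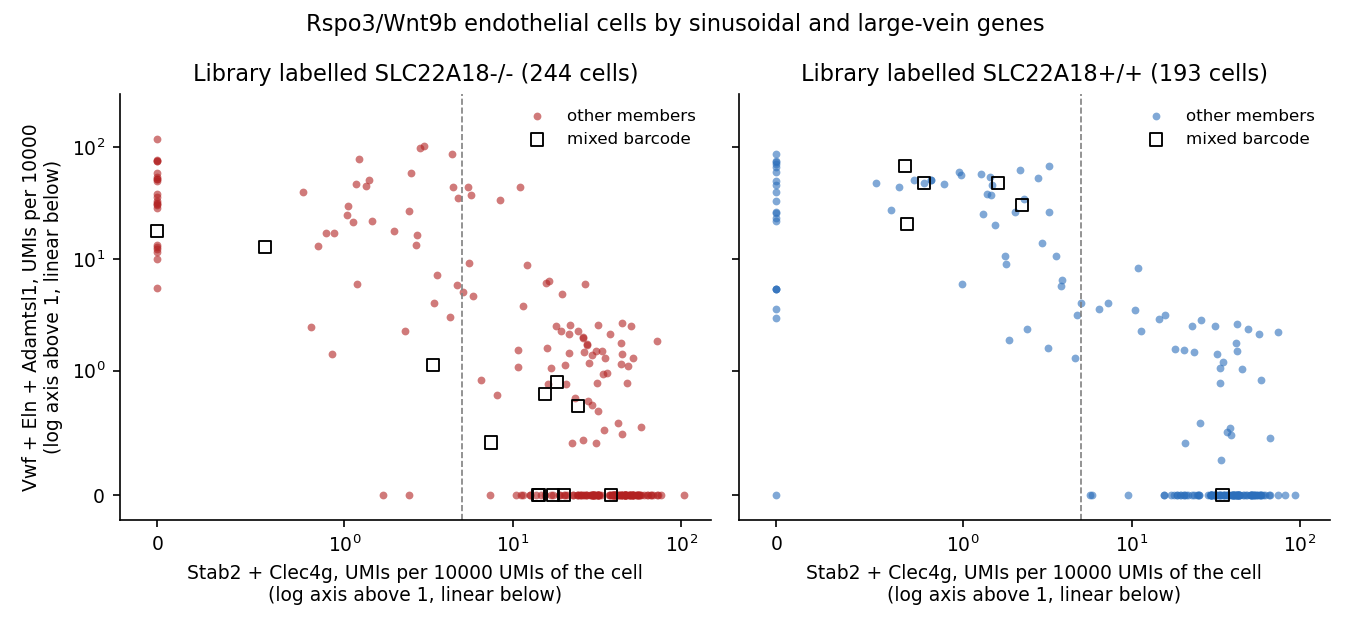
Each point is 1 member cell of the library named above the panel. The horizontal axis gives Stab2 and Clec4g UMIs per 10000 and the vertical axis Vwf, Eln and Adamtsl1 UMIs per 10000 (both axes logarithmic above 1 and linear below), with the dashed line at 5 and open squares for mixed barcodes, which carry RNA of another cell type as defined further on. The sinusoid-poor cells (57 and 60) sit high on the vertical axis with medians of 26.8 and 33.8, while the sinusoid-rich cells (187 and 133) have medians of 0 and 0. Vwf was used by the selection, and Eln and Adamtsl1 are genes found higher in the sinusoid-poor members of these same cells. The vertical axis thus describes the split and is no test of it.

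The 4 markers came together in the sinusoid-poor members. All 4 were detected in 36 and 36 of them (63.2% and 60%) but in 22 and 15 sinusoid-rich members (11.8% and 11.3%). Vwf had a UMI in 93.0% and 86.7% of sinusoid-poor and 31.0% and 19.5% of sinusoid-rich members, against 0.920% and 0.916% of lymphocytes. Its level was 1049 and 1184 CPM in the sinusoid-poor and 56.2 and 39.8 CPM in the sinusoid-rich members. The markers of the label thus met in the sinusoid-poor members, while the sinusoid-rich ones, the larger number, carried sinusoidal receptors and mostly lacked Vwf. Whether the sinusoid-rich members line the central vein or are pericentral sinusoidal cells that carry Rspo3 was not tested, and every value over all members, the share of members included, holds both kinds. Stab2 (chromosome 10, 86841198 to 87008025, minus strand) stood at 42.9 and 38.8 CPM in sinusoid-poor members, where lymphocytes had 50.1 and 52.8, and at 2372 and 2546 CPM in sinusoid-rich members.

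The ligands were present in both kinds, in unlike proportion. The other endothelial classes, chosen by their own marker UMIs and excluding members, serve for comparison. The pericentral sinusoidal class (317 and 290 cells) had Stab2 and Kit. The periportal sinusoidal class (532 and 610) had Stab2, at least 2 UMIs of Efnb2, Dll4, Ltbp4 and Ntn4 together and none of Kit, Rspo3 or Wnt9b. The portal and arterial class (141 and 169) had at least 2 UMIs of Gja5 and Adgrg6 together and fewer than 2 of Rspo3 and Wnt9b together. These rules limited Rspo3 and Wnt9b in the classes, so their levels there are description only. Rspo3 reached 3923 (3776 to 4076) and 4510.0 (4344 to 4680.5) CPM in sinusoid-poor members and 1216 and 1137 CPM in sinusoid-rich members. It stood at 91.6 and 50.7 CPM in pericentral and 1.60 and 4.43 CPM in portal cells, and at 9.22 and 7.44 CPM in lymphocytes. In single cells the median Rspo3 count was 45.5 and 47.8 per 10000 UMIs in sinusoid-poor and 8.05 and 6.0 in sinusoid-rich members. Between the kinds of member, Rspo3 was thus higher in the sinusoid-poor members of both libraries. The portal rule itself kept Rspo3 low, and leaving out members lowered the pericentral level.

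Wnt9b followed the order of Rspo3, from 238 and 291 CPM in sinusoid-poor to 76.7 and 87.4 in sinusoid-rich members. It stood at 11.7 and 8.74 in pericentral and 0.534 and 0.443 in portal cells, whose rules also limited Wnt9b. Wnt2 (chromosome 6, 17988940 to 18030585, minus strand), which the selection did not use, had another order. It was 639.6 (607 to 674) and 618 (580.5 to 657) CPM in sinusoid-rich members, 402 (356 to 453) and 410.4 (362 to 464) in sinusoid-poor members and 351 (325 to 379) and 276 (252 to 302) in pericentral cells. Wnt2 was highest in the sinusoid-rich members, and in both libraries the interval of that level lay above those of the sinusoid-poor members and the pericentral cells. The sinusoid-poor members and pericentral cells had overlapping intervals in the knockout-labelled library and separate ones in the wild-type library. Periportal cells had 76.8 and 66.0 CPM and portal cells 8.01 and 14.2 CPM, with 4.02 and 3.72 CPM in lymphocytes.

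**Figure D2:**
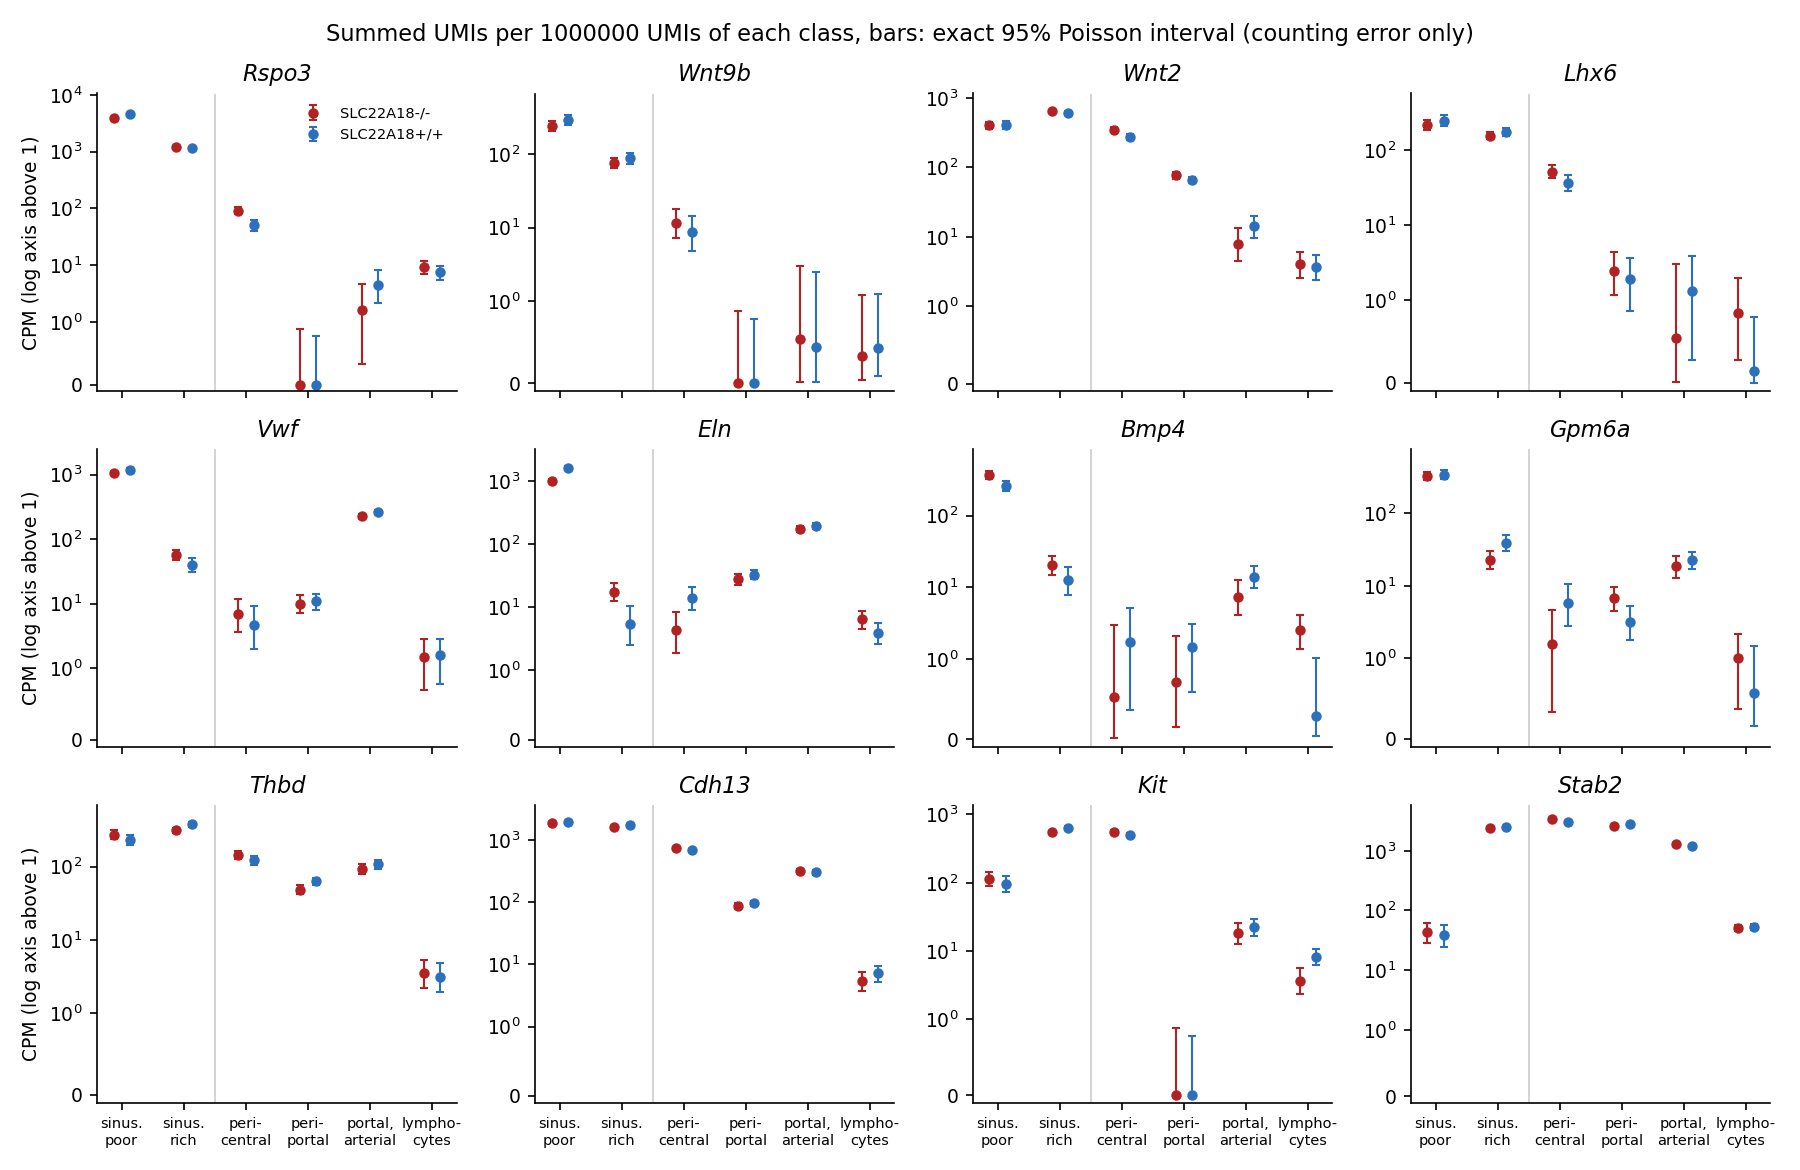
Level of Rspo3, Wnt9b, Wnt2, Lhx6, Vwf, Eln, Bmp4, Gpm6a, Thbd, Cdh13, Kit and Stab2 in CPM (log axis above 1). The classes are sinusoid-poor and sinusoid-rich members, the pericentral, periportal and portal endothelial classes and lymphocytes. Each point is 1 library, with its 95% counting interval. Rspo3 stands at 3923 and 4510.0 CPM in sinusoid-poor and 1216 and 1137 in sinusoid-rich members, whereas Wnt2 is 402 and 410.4 in the former and 639.6 and 618 in the latter.

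Although the members held only 2.87% and 2.21% of all UMIs of the filtered cells, they held 42.9% and 36.9% of the Rspo3 UMIs, 49.5% and 45.4% of those of Wnt9b and 18.9% and 15.1% of those of Wnt2. Rspo3 and Wnt9b chose the cells, and Wnt2 did not. Stellate cells, the pericytes of the sinusoid, held 8.54% and 8.59% of the Rspo3 UMIs. Of other genes not used by the selection, the members held 35.1% and 34.3% of the UMIs of the homeobox gene Lhx6 and 32.5% and 22.2% of those of Bmp4.

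The limit of 2 ligand UMIs lay within a continuous range. Among cells that met every other criterion, 49 and 46 had 1 ligand UMI, 20 and 20 had 2 and 17 and 19 had 3. The cells with 1 UMI, just outside, had Wnt2 at 367 and 382 CPM, Kit at 346 and 428 and the cadherin Cdh13 at 547 and 780. The cells with 2, just inside, had Wnt2 at 534 and 350 CPM, Kit at 621 and 441 and Cdh13 at 1461 and 1014. A further 85 and 77 cells had 2 or more ligand UMIs but no venous UMI.

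Between the kinds of member, the sinusoid-poor cells had higher levels of Eln, Fbln5 and Adamtsl1 and the sinusoid-rich cells higher levels of Lyve1, Bmp2 and Kit. Of 8310 genes compared, 250 were higher (3.01%) and 285 lower (3.43%) in sinusoid-poor members in both libraries, and the median log2 ratio over all of them was 0.04 and 0.02. Because the split used the same cells, these counts describe it and are no test of it. Elastin, Eln, stood at 1010.1 and 1627 CPM in sinusoid-poor and 17.4 and 5.42 CPM in sinusoid-rich members. Adamtsl1, a secreted protein of the ADAMTS family, was 314-fold (134 to 972) and 137-fold (78.0 to 267) higher. The cytochrome P450 gene Cyp1b1 was 113-fold (18.9 to 4582) and 99.2-fold (16.7 to 4023) higher, and Fbln5, an elastic fibre protein, 49.7-fold (18.4 to 188) and 287-fold (50.4 to 11437). The 12 highest ratios also included Fndc1, the adhesion molecule Ncam1, Thsd7a, Myrip, Cthrc1, Setbp1, Cd200 and Emp1. The wide intervals come from the few UMIs of these genes in sinusoid-rich members.

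The matrix list had 6 of 25 measured genes higher in the sinusoid-poor members, namely Eln, Fbn1, Fbln2, Fbln5, Ltbp1 and Bgn, and 1 lower, Emilin1. Eln, Fbn1, Fbln5 and also Emilin1 encode proteins of elastic fibres, so genes of this kind were called in both directions, and Bgn encodes a small proteoglycan. The list's median log2 ratio was 0.08 and 0.49. Fbln5 stood at 88.7 and 173 CPM against 1.78 and 0.603 in sinusoid-rich members, and Fbn1, fibrillin 1, at 148 and 186 against 29.0 and 53.0. In the wild-type library 3 members also had at least 20 UMIs of the fibroblast collagens Col1a1, Col1a2 and Col3a1. Without these and the other mixed barcodes defined below, 229 genes were higher and 307 lower of 8002, and Eln was 60.3-fold (43.6 to 85.5) and 267-fold (140.1 to 587) higher.

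Of the 15 measured genes of the sinusoidal identity list that the split did not use, 11 were lower in the sinusoid-poor members and 0 higher, with a median log2 ratio of -2.25 and -2.39. Lyve1, a hyaluronan receptor, stood at 8.87 and 16.2 CPM against 222 and 272 in sinusoid-rich members. Bmp2, the endothelial signal for hepatocyte hepcidin, stood at 189 and 134 against 1477 and 1348, and the coagulation factor gene F8 at 385 and 354 against 1053 and 1035. The tight junction gene Cldn5 (10.4 and 4.85 against 297 and 284 CPM) and Col13a1 were also lower, as were 6 of 12 periportal list genes (Adam23, Dll4, Il1a, Cd36, Efnb2 and Msr1) and 4 of 10 pericentral sinusoid list genes (Kit, Gatm, Rab3b and Plpp1). The other genes of these lists were not called, and the summed level of the pericentral sinusoid list was 9039 and 10295 CPM in sinusoid-poor and 9658 and 10125 in sinusoid-rich members. Kit, the stem cell factor receptor that marks pericentral sinusoids, was 115 and 97.0 CPM in sinusoid-poor and 549.5 and 633 in sinusoid-rich members.

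The BMP ligand genes Bmp4, Bmp2 and Bmp6 did not go one way. In the list of BMP, TGF-beta and other signalling genes, which also holds receptors and nuclear regulators, 3 of 25 were higher in sinusoid-poor members (Bmp4, Tgfb2 and Id2) and 4 lower (Bmp2, Bmp6, Hgf and Lifr). Bmp4 was 373 and 257 CPM in sinusoid-poor and 20.5 and 12.7 in sinusoid-rich members, while Bmp6 was 38.5 and 33.9 against 121 and 122. Where the sinusoid-rich cells carried more Bmp2 and Bmp6, the sinusoid-poor cells carried more Bmp4. Of the Notch list, the ligand gene Jag1 was higher and Dll4 and Notch4 lower among 10, where Jag1 and Dll4 encode ligands. On the vein and artery list of 30 measured genes, the transcription factors Foxc1 and Gata6 were higher and Maf, Bcl6b and the ephrin ligand gene Efnb2 lower. In the vasoactive list Aplnr, Ece1 and Ednrb were higher among 13 and in the leukocyte adhesion list Sele, E-selectin, was higher among 17 (126 and 134 against 38.8 and 44.0 CPM). The mesothelial marker Gpm6a was 327 and 343 against 22.7 and 39.2 CPM, and 1 of 7 list genes could be compared. The mesothelial genes Upk3b and Muc16 were at 0 in the sinusoid-poor members of both libraries. Msln, Upk1b and Krt19 had UMIs there only in the knockout-labelled library, and Wt1 only in the wild-type library. The whole list summed to 339 and 352 CPM in these members.

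Some genes of the central vein list were abundant in both kinds, among them Thbd and Cdh13, which are also on the pericentral sinusoid list. Thbd, thrombomodulin, an anticoagulant receptor, stood at 274 and 231 CPM in sinusoid-poor and 313 and 376 in sinusoid-rich members. Cdh13 stood at 1860.4 and 1918 CPM against 1629 and 1754, and Lhx6 at 217 and 249 against 156 and 175. None of these 3 was called between the kinds. In pericentral cells Thbd was 143 and 122 CPM, Cdh13 740.1 and 674 and Lhx6 51.6 and 36.7.

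Among receptors and feedback genes of the Wnt pathway, 3 of 18 were higher in sinusoid-poor members (Reck, Rnf43 and Fzd6) and 0 lower. Reck, a membrane protein that works with Wnt7 signals, stood at 39.9 and 64.6 against 5.35 and 6.63 CPM. Axin2, a general target of beta-catenin signalling, was 8.87 and 4.85 CPM in sinusoid-poor and 3.57 and 6.03 CPM in sinusoid-rich members and 5.03 and 5.72 CPM in lymphocytes. In the members as a whole it gave 14 and 13 UMIs, or 4.80 (2.62 to 8.05) and 5.71 (3.04 to 9.76) CPM, which was not above the lymphocyte level in either library.

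Against pericentral sinusoidal cells, the nearest sinusoidal class, all members together had 206 higher genes (2.01% of 10260) and 678 lower (6.61%), with a median log2 ratio over all genes of -0.05 and -0.03. Of the central vein list, 8 of 12 measured genes that the selection did not use were higher (Lhx6, Thbd, Fabp4, Fbln2, Cdh13, Ramp3, Bmp4 and Bgn) and 0 lower, at a median of 1.14 and 1.44. The central vein list shares Wnt2, Thbd, Fabp4, Cdh13 and Rab3b with the pericentral sinusoid list. That second list summed to 9514 and 10171 CPM in members and 6101 and 5362 in pericentral cells, so the higher levels were not particular to central vein genes. Fabp4, a fatty acid carrier, was 2.58-fold (2.48 to 2.68) and 3.41-fold (3.26 to 3.57) higher, and Lhx6 3.29-fold (2.64 to 4.13) and 5.31-fold (4.07 to 7.03). The highest ratios belonged to Fndc1, Pcdh9, Thsd7a, Adamtsl1, Cd200, Samd5, Rassf9, Cyp1b1, Fbln2, Cthrc1, Bmp4 and Ncam1. Fndc1 had 118 and 153 UMIs in members and 0 in pericentral cells of either library, hence at least 25.3-fold and at least 38.4-fold higher against a limit of 3 UMIs.

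Of these, Fndc1 had 114 and 152 of its UMIs in sinusoid-poor members and Thsd7a 199 and 228 of 206 and 236, so the sinusoid-rich members were also compared alone. Here 83 genes were higher (0.851% of 9752) and 791 lower (8.11%). Samd5 was 14.7-fold (3.77 to 126) and 57.9-fold (9.98 to 2328) higher, the fibulin gene Fbln2 24.3-fold (8.04 to 120.1) and 6.34-fold (2.98 to 15.5), the ectonucleotidase Entpd1 7.86-fold (4.43 to 15.2) and 5.95-fold (3.68 to 10.1) and Lmcd1 4.94-fold (3.32 to 7.60) and 5.02-fold (3.30 to 7.90). Gpm6a, Dnm3, Prss23, Rnf165, Tnfrsf11a, Slc52a3, Nuak1 and Megf6 completed the 12 highest. Of the central vein list 6 of 11 were higher here (Lhx6, Thbd, Fabp4, Fbln2, Cdh13 and Ramp3). Of these, Thbd, Fabp4 and Cdh13 are also on the pericentral sinusoid list. None of 15 sinusoidal identity genes was called in either direction. In leukocyte adhesion, Vcam1, Jam2 and Il33 were higher among 18.

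The lower genes of these comparisons included hepatocyte genes. In sinusoid-rich members 12 of 13 measured hepatocyte genes were lower than in pericentral cells, and in all members 6 of 13. The summed level of the 14 hepatocyte genes was 9821 and 20033 CPM in pericentral cells, 4223 and 3671 in sinusoid-rich and 7128 and 4104 in sinusoid-poor members and 7601 and 7894 in lymphocytes. Pericentral cells were also shallower, at 5333 and 4914 UMIs per cell in the median. Their summed level of the 21 dissociation-response genes was 12384 and 12278.5 CPM against 18531 and 19881 in sinusoid-rich members. The medians per cell lay further apart, at 3582 and 3158 CPM against 18859.8 and 19524. The part of these differences in the 791 lower genes was not tested. With every cell thinned to 3000 UMIs the members had 97 higher and 263 lower genes against the pericentral class, and with at least 100 UMIs required they had 114 and 392.

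Against periportal sinusoidal cells 288 genes were higher (2.58% of 11174) and 265 lower (2.37%) in the members, with an all-gene median log2 ratio of -0.0035 and -0.01. Wnt2 was 7.61-fold (6.75 to 8.61) and 8.5-fold (7.51 to 9.65) higher. Of the central vein list 11 of 13 measured genes were higher and 0 lower, with Lhx6 at 70.8-fold (38.2 to 149) and 102-fold (53.4 to 225). In haemostasis 7 of 14 were higher and 0 lower, including Thbd, the prostaglandin synthase Ptgs1, the protein C receptor Procr, the annexin partner S100a10 and the urokinase Plau, at a list median of 1.0 and 1.19. Genes highest in ratio were Ajap1, Plppr5, the GLP-1 receptor Glp1r, Lhx6, Samd5, Bmp4, the apelin receptor Aplnr, Fndc1, Fbln2, Rnf165, Tgfb2 and Cyp1b1.

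Of the periportal sinusoid list 6 of 8 measured genes were lower in the members (Adam23, Il1a, Efna1, Cd36, Msr1 and Lama4) and 0 higher. The scavenger receptor Msr1 was 19.1-fold (15.1 to 24.5) and 21.9-fold (16.6 to 29.5) lower, and Esm1, endocan, 49.0-fold (8.51 to 1963) and at least 17.5-fold. The vessel-destabilising ligand Angpt2 was 7.48-fold (4.48 to 13.4) and 6.19-fold (3.44 to 12.2) lower. Of 13 hepatocyte genes 7 were lower, with summed levels of 4896 and 3789 CPM in members and 10618 and 7705 in periportal cells. Without the mixed members defined below, the periportal class being unchanged, 609 genes were lower, and with cells thinned to 3000 UMIs 158 were higher and 115 lower.

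Against portal and arterial cells 210 genes were higher (2.06% of 10184) and 186 lower (1.83%). Wnt2 was 73.0-fold (44.1 to 131) and 39.6-fold (27.9 to 58.1) higher, and Egfem1 73.9-fold (41.2 to 148) and 51.3-fold (32.3 to 87.0). Of the central vein list 9 of 13 were higher, and the matrix Gla protein Mgp and clusterin Clu were lower. All 12 periportal list genes were lower. The portal and arterial list had 7 of 10 lower genes, among them the Notch target Hey1, which had 0 UMIs in the members and 32 and 67 in portal cells. The transcription factor Sox17 was 2.98-fold (2.44 to 3.66) and 3.26-fold (2.65 to 4.04) lower. The Notch genes Nrarp, Dll4, Jag1 and Hey1 were lower and the modifier Lfng higher among 12. Of genes of retinoid handling, the retinal reductase gene Dhrs3, the receptor gene Rarb and Cyp26b1, the retinoic acid hydroxylase, were higher. Nrg1, Npr3, Col8a1, Igfbp5, Mal, Tox2 and Ly6c1 were among the lowest in ratio. Without the mixed members 403 genes were lower, and with cells thinned to 3000 UMIs 138 were higher and 107 lower.

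The sinusoid-poor members alone, compared with the portal class, had 259 higher (2.92% of 8869) and 307 lower genes (3.46%). Thbd was 2.98-fold (2.41 to 3.69) and 2.16-fold (1.75 to 2.67) higher and Bmp4 49.8-fold (29.1 to 92.5) and 18.1-fold (12.3 to 27.4). The peptide precursor Nts, Col6a3, Sema3d and Prss23 were among the 12 highest ratios. The elastic fibre genes Eln and Fbln2 and the genes Ltbp1 and Bgn were higher of 29 in the matrix list, and Lama4 was lower. In the sinusoidal identity list 9 of 15 were lower and 0 higher, the portal class being largely Stab2-positive with a median of 23.1 and 19.2 Stab2 and Clec4g UMIs per 10000. The Notch list had 6 of 11 lower (Dll4, Jag1, Hey1, Mfng, Hes1 and Notch4), and the endothelin receptor gene Ednrb was lower (126 and 219.8 against 685 and 859 CPM).

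The members made up a larger share of the knockout-labelled library. Of all filtered cells they were 2.13% (1.87 to 2.41) and 1.55% (1.34 to 1.79), a ratio of 1.37, and of the 3408 and 3716 endothelial cells 7.16% (6.32 to 8.08) and 5.19% (4.50 to 5.96), a ratio of 1.38. The intervals do not overlap, but they describe the counting of cells in 1 library each. Sinusoid-rich members were 5.49% (4.75 to 6.31) and 3.58% (3.01 to 4.23) of endothelial cells, and these intervals did not overlap. Sinusoid-poor members were 1.67% (1.27 to 2.16) and 1.61% (1.23 to 2.07), and their intervals overlapped. Whether the kinds differ in this was not tested. With each endothelial cell thinned to 3000 UMIs, which left out shallower cells and kept 2751 and 2847, members were 5.53% (4.70 to 6.45) and 4.0% (3.31 to 4.79), sinusoid-rich members 3.53% (2.87 to 4.28) and 2.32% (1.80 to 2.94) and sinusoid-poor members 2.0% and 1.69%. At this equal depth the intervals of the libraries overlapped for all 3. Fewer members remained, 152 and 114 after thinning against 244 and 193 before, so the overlap alone does not show a smaller difference. Whether depth has a part in the difference was not tested.

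**Figure D3:**
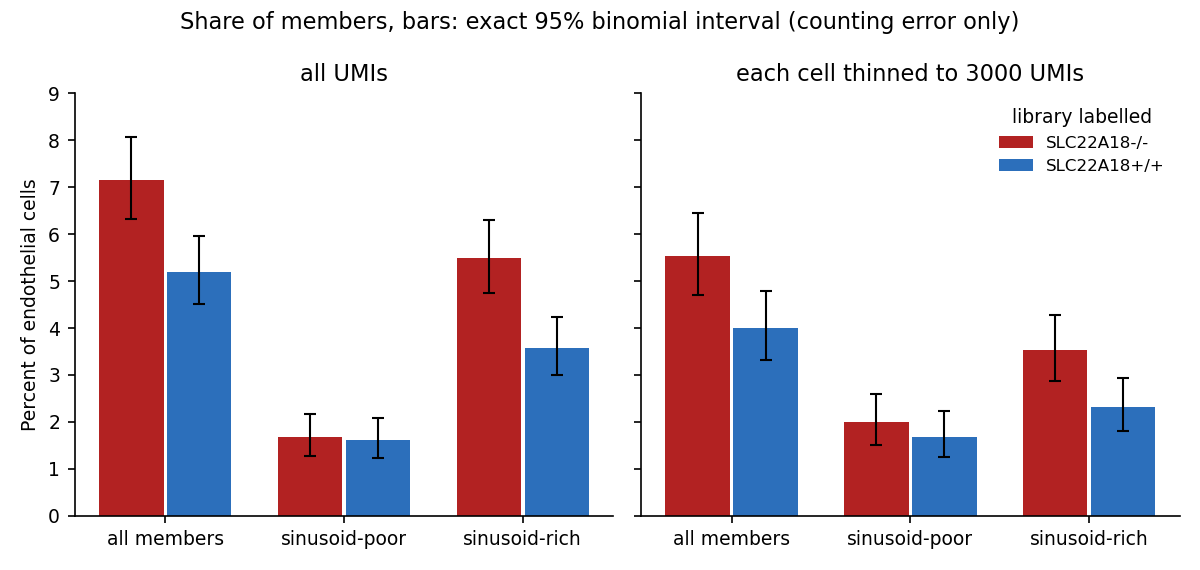
Members, sinusoid-rich members and sinusoid-poor members as a percentage of endothelial cells in each library, with exact 95% binomial intervals. The sinusoid-rich share is 5.49% in the knockout-labelled and 3.58% in the wild-type library, and the sinusoid-poor share 1.67% and 1.61%.

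Between the libraries the members had 432 higher genes (4.01% of 10783) and 108 lower genes (1%) in the knockout-labelled library, but few barcodes carried most of this. Mixed barcodes were defined, after the values had been seen, as members with at least 20 UMIs of 6 hepatocyte genes (Cps1, Apob, Slco1b2, Abcc2, Pzp and Cyp3a25), at least 20 UMIs of Col1a1, Col1a2 and Col3a1, or at least 50 haemoglobin UMIs. There were 12 in the knockout-labelled library, 11 by hepatocyte genes and 1 by haemoglobin, and 6 in the wild-type library, 3 by hepatocyte genes and 3 by collagens. The knockout-labelled ones held 9.43% of that library's member UMIs and 64.3% of its UMIs of the genes called higher. The wild-type ones held 4.56% of member UMIs and 44.0% of the UMIs of the genes called lower. Without them, 232 and 187 cells remained and 65 genes were higher (0.633% of 10268) and 72 lower (0.701%), with a median log2 ratio over all genes of -0.0032. Of the genes called with all members, 56 of the 432 and 53 of the 108 remained called. The genes that define mixed barcodes were themselves called between the libraries over all members. Part of the fall in calls, and of the UMI shares above, therefore follows from the definition and is description only.

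Col1a1 and Col3a1 helped to define the mixed barcodes, so their fall without these barcodes follows from the definition. Col1a1 had 2 and 538 UMIs in all members and 2 and 8 without mixed barcodes, and Col3a1 30 and 771 and then 27 and 36. Cyp7a1, a hepatocyte enzyme that starts bile acid synthesis, had 62 and 2 UMIs and then 13 and 2, against 22.1 and 12.4 CPM in lymphocytes. None of these 3 was called without the mixed barcodes. Among the 12 highest ratios over all members, Onecut1, Crybg1, Acss3, Pkhd1, Patj, Shank2, Ido2 and Garem1 stood beside Slc15a2, Cyp7a1, Spp1 and Gm56626, and of the 12 lowest, Col1a1, Col1a2, Col3a1, Adamts2, Col6a1, Tagln, Gsn, Mgp, Antxr1, Cpe, Cygb and Pdlim3, only Mgp and Cpe remained called.

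**Figure D4:**
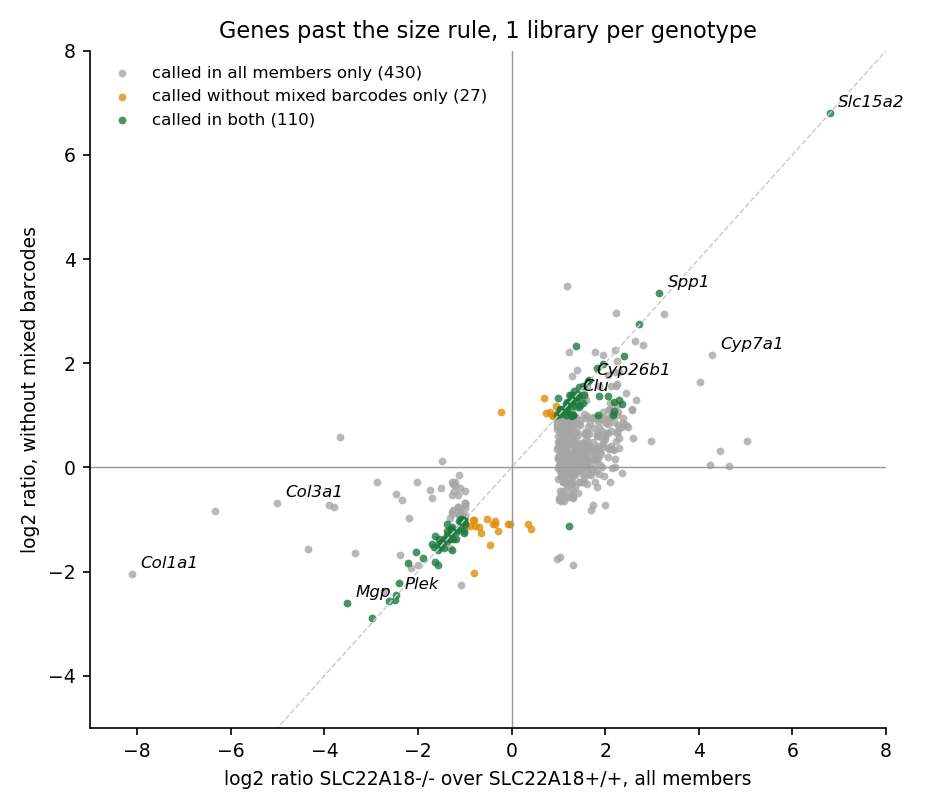
Each point is 1 gene called between the libraries, with its log2 CPM ratio over all members on the horizontal axis and without mixed barcodes on the vertical axis. Of the genes, 430 were called in all members only (grey), 27 without mixed barcodes only (orange) and 110 in both (green), and many grey points on the right lie near 0 on the vertical axis while Cyp26b1 and Slc15a2 lie on the dashed line of equal ratios. Of the 110, 1 was called in opposite directions.

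Cyp26b1 (chromosome 6, 84571414 to 84593908, minus strand), which degrades retinoic acid, was called higher in the knockout-labelled library in all members, without mixed barcodes and in each kind of member. It had 1730 and 436 UMIs in all members, 593 and 191 CPM, a ratio of 3.10-fold (2.79 to 3.45). Without mixed barcodes the ratio was 3.15-fold (2.83 to 3.51). In sinusoid-poor members without mixed barcodes it was 3.15-fold (2.24 to 4.52), at 261 and 82.9 CPM, and in sinusoid-rich members 3.08-fold (2.75 to 3.46), at 728 and 236 CPM. In these kinds of member 109 genes were higher (1.78% of 6111) and 89 lower (1.46%) in sinusoid-poor cells, and 72 higher (0.76% of 9470) and 59 lower (0.623%) in sinusoid-rich cells. Only Cyp26b1 and Slc15a2 were called higher in both kinds, and only Arhgap15 lower.

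Thinned to 3000 UMIs per cell, Cyp26b1 had a UMI in 67.4% and 36.8% of members and 1.76% and 0.598% of lymphocytes; the unthinned shares in members were 87.7% and 57.0%. The member shares lay above those of lymphocytes in both libraries. The difference was also present in the other classes, with 393 and 95 CPM in pericentral, 302 and 69.2 in periportal and 269 and 42.1 in portal cells. Over all endothelial cells, members included, 21 genes were higher (0.128% of 16462) and 11 lower (0.0668%), and of the genes called in the members without mixed barcodes, Cyp26b1, Slc15a2 and Gm56626 were among the former and G6pc and Serpina1e among the latter. G6pc and Serpina1e are hepatocyte genes, and lymphocytes too had 7601 and 7894 CPM summed over the hepatocyte list. Whether endothelial cells express these 2 genes or carry them as free RNA was not tested. Rarb and Dhrs3 were not called between the libraries in the members without mixed barcodes, at 491 and 416 CPM for Rarb and 486 and 407 for Dhrs3.

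Slc15a2 (chromosome 16, 36750177 to 36784962, minus strand), a peptide transporter, gave 213 and 1 UMIs in the members, or 73.0 and 0.439 CPM. Lymphocytes had 128 and 2.0 CPM. Thinned to 3000 UMIs, 18.6% and 0% of members had a UMI of it, and 27.4% and 0.199% of lymphocytes. The libraries differed in this gene, but the members' CPM did not exceed that in lymphocytes in either library. Whether lymphocytes express Slc15a2 was not tested, so this comparison cannot show whether the members do.

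**Figure D5:**
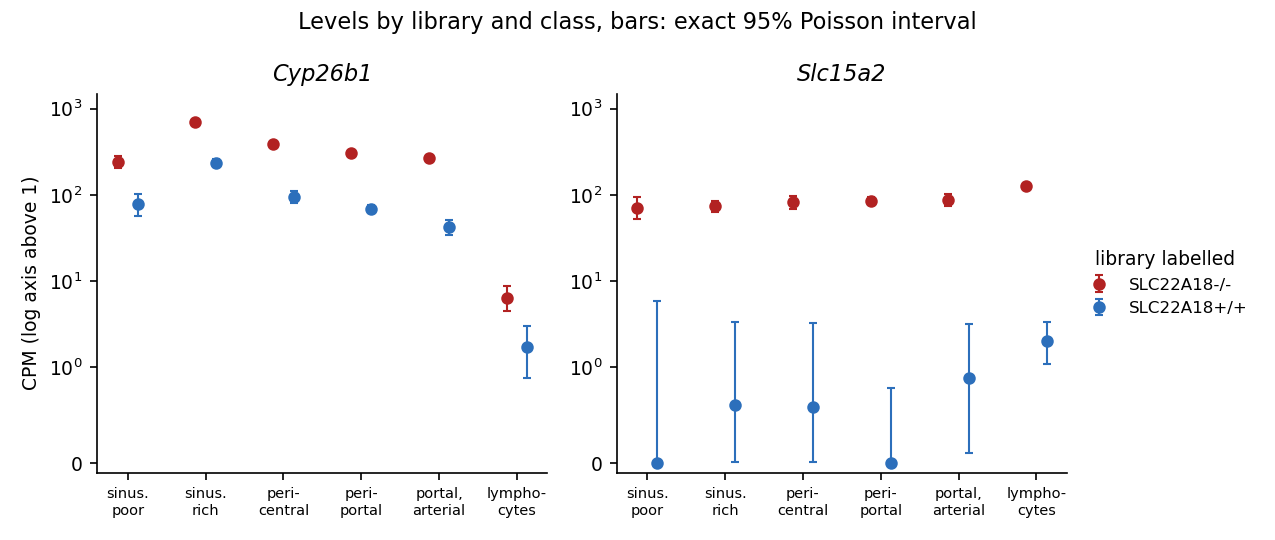
Level of Cyp26b1 and Slc15a2 in CPM (log axis above 1) in each cell class, 1 point per library with its 95% counting interval. Members are drawn as sinusoid-poor and sinusoid-rich. In lymphocytes Cyp26b1 stands at 6.37 and 1.72 CPM, and Slc15a2 at 128 CPM in the knockout-labelled library. All members together, which have no point, had 593 and 191 CPM of Cyp26b1, and 73.0 CPM of Slc15a2 in the knockout-labelled library.

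Among the other genes with at least 100 UMIs that were called both in all members and without mixed barcodes, Stmn1, Spp1, Mex3b, Acaa1b and Clu were higher and Dgkd, Hdc, Ckap2l, Mgp, Ncam1, Plek, Ccl4, Serpina1e, Ltbp1 and Setbp1 lower. Without mixed barcodes alone, Ccl5 was also called higher and Snhg5 and Gm47283 lower. Mgp, an inhibitor of vessel calcification, stood at 6.81 and 42.3 CPM, 6.21-fold (3.72 to 10.9) lower. Ltbp1, a binding protein of latent TGF-beta, stood at 28.0 and 78.2 CPM, and Ncam1 at 13.6 and 42.3 CPM. Ltbp1, Ncam1 and Setbp1 were also higher in sinusoid-poor members, which were 23.4% and 31.1% of all members. None of the lower genes named here was called lower in both kinds. With both kinds weighted alike, 93 of the 108 genes lower over all members remained called. The part of this unlike mixture in the ratios of single genes was not tested. Single cells held much of some of these genes. In the knockout-labelled members 94.4% of the Spp1 UMIs and 57.1% of the Clu UMIs came from 1 cell each.

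Of the central vein list genes that did not choose the cells, Wnt2, Thbd and Cdh13 were not called between the libraries. Without mixed barcodes Wnt2 stood at 620.2 and 586 CPM (ratio 1.06, 0.983 to 1.14), Thbd at 324 and 349 and Cdh13 at 1783 and 1858. Of the 13 measured central vein list genes, Clu was higher and Mgp lower, at a list median of -0.08. The 22 measured Wnt receptor and feedback genes held 1 call, the secreted Wnt modulator Dkk3, which was higher (14.4 and 5.52 CPM). The 17 sinusoidal identity, 29 angiocrine, 12 Notch, 30 transcription factor, 13 haemostasis, 18 adhesion, 15 vasoactive and 21 interferon genes held no call. Of 28 matrix genes Mgp and Ltbp1 were lower. The arterial gene Bmx, Cd34 and the mural cell gene Rgs5 were lower in their lists. The 11 measured genes of the imprinted domain around Slc22a18 held no call, among them Cdkn1c at 66.2 and 69.9 CPM and Kcnq1ot1 at 64.3 and 71.3 CPM.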

How the data were processed

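Each library was deposited by the authors as a matrix of raw UMI counts per gene and barcode, made with Cell Ranger 8.0.1 per the file headers; STAR and the mm10 build are named in the submitters' processing notes. The libraries are of the 3' version 3 chemistry, per the labels' protocols. Of 33696 gene identifiers in the deposited files, 32012 matched the GENCODE vM21 annotation of GRCm38, from which the coordinates come, and 1684 did not.

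The files hold 11741 and 12796 barcodes with 103478998 and 105556354 UMIs, of which 11458 and 12431 barcodes passed the filter. The members and gene lists were chosen with earlier results of these data known. Counts were summed per library and cell class and divided by the class total per 1000000. With 1 library per genotype no count model was fitted and no p-value computed. Rules and thresholds are given where first used. Named genes were the 12 largest ratios in each direction that were called, without mitochondrial, ribosomal, haemoglobin and receptor segment genes, the called members of each list (up to 4 in each direction), and a fixed set of markers; for class comparisons the smaller log2 ratio of the libraries set the rank. Genes named for having at least 100 UMIs, or for calls in both kinds of member, were chosen after their values were seen. Doublet calls (Scrublet in scanpy 1.11.5) marked 312 barcodes (2.66%) and 364 (2.84%), 7 and 2 of them members, which were kept. Thinning drew UMIs without replacement. The calling code was tested on simulated data with known ratios. Alternatives covered the selection thresholds, mitochondrial limit, UMI minimum, doublets, mixed barcodes, cell weighting, TMM factors (edgeR 4.0.16, R 4.3.3) and depth. Python 3.11.15, numpy 2.4.6, scipy 1.17.1, pandas 2.3.3 and matplotlib 3.10.9 were used.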

Additional observations from a re-analysis of the deposited data

Results flagged for a closer look

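A few genes were called in opposite directions between the libraries in the members without mixed barcodes and in another endothelial class, and in no case was the difference between the classes tested. Spp1, osteopontin, was higher in the knockout-labelled members (log2 ratio 3.35, 266 and 21 UMIs) and lower in the pericentral class (-3.69, 25 and 300 UMIs), with 94.4% of the former UMIs in 1 knockout-labelled cell and 93.3% of the wild-type pericentral UMIs in 1 cell. Against the portal class, Spp1 was again 3.35 in the members and -1.35 in portal cells (1035 and 3172 UMIs). Clu, clusterin, had a log2 ratio of 1.34 in the members (210 and 68 UMIs, 57.1% of the first in 1 cell), -1.14 in pericentral cells (98 and 198 UMIs) and, beside the same 1.34, -1.75 in portal cells (684 and 2782 UMIs). Stmn1, a microtubule regulator, had 1.23 in the members (172 and 60 UMIs, 26.7% of the first in 1 cell) and -1.0 in portal cells (30 and 73 UMIs).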

How the results depend on the processing

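No paired analysis was possible because each genotype is 1 library. Between the libraries, the 432 genes higher in the knockout-labelled members became 65 without mixed barcodes, 62 without the 10% of members highest in hepatocyte UMIs, 218 without Scrublet doublets, 238 with each cell weighted equally and 170 with at least 100 UMIs required, and the 108 lower genes became 25 with at least 100 UMIs required. Ido2 turned to a log2 ratio of -0.27 without the members highest in hepatocyte UMIs, and Gsn to 0.59 without mixed barcodes. Against pericentral cells, 206 higher genes became 114 at 100 UMIs and 97 when thinned, and 678 lower genes 392 and 263. Against periportal cells, 288 higher genes became 169 at 100 UMIs and 158 when thinned, and 265 lower genes 609 without mixed members, 573 without those highest in hepatocyte UMIs and 115 when thinned. Against portal cells, 210 higher genes became 138 when thinned, and 186 lower genes 403 without mixed members, 353 without those highest in hepatocyte UMIs, 118 at 100 UMIs and 107 when thinned. Between the kinds of member, 250 higher genes became 104 at 100 UMIs and 96 when thinned, and 285 lower genes 172 when thinned. The thinned and 100-UMI settings compare fewer UMIs or genes by construction, and for the others the cause was not tested. The ratio of member shares stayed between 1.34 and 1.41 over the alternatives run. TMM factors shifted log2 ratios by 0.0137. Each library's depth limits the genes with few UMIs, and the mixed barcodes and the limit of 5 per 10000 were chosen after seeing the data.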
